A study of Mus musculus with 7 samples.

Results

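Of the 47643 genes in the deposited expression table, 10 were examined here: the Toll-like receptor genes Tlr1, Tlr2, Tlr4, Tlr6, Tlr7, Tlr9 and Tlr13, the endotoxin co-receptor genes Cd14 and Ly96 (which encodes MD-2), and the adaptor gene Myd88. They were chosen by name for their place in innate sensing of microbes, not by their values, though earlier results of these data were known. RNA-seq was carried out on alveolar macrophages, which patrol the airspaces of the lung, taken from mice as cells positive for CD11c, F4/80 and SiglecF. The tested genotypes carry floxed Siah1a and Siah2, genes for E3 ubiquitin ligases. In the Lyz2cre group (cSiah1a/2f/f::Lyz2cre, 3 libraries) Cre recombinase is expressed from Lyz2, the lysozyme M locus of myeloid cells. In the CD11ccre group (cSiah1a/2f/f::CD11ccre, 1 library) its expression follows the CD11c promoter (gene Itgax), active in alveolar macrophages and in dendritic cells. The comparison group was labelled wild type (WT, 3 libraries), without stating whether those mice carried floxed alleles or a Cre transgene. The labels give no age, sex or treatment, and do not say that the libraries came from separate animals, so p-values cover no more than the spread among the libraries.

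Toll-like receptors are membrane proteins that bind conserved microbial molecules through an outer leucine-rich horseshoe and signal through an inner TIR domain. At the cell surface TLR2, paired with TLR1 or TLR6, recognises bacterial lipopeptides, while TLR4 with MD-2 recognises lipopolysaccharide handed over by CD14. In endosomes TLR7 binds single-stranded RNA, TLR9 unmethylated CpG DNA, and TLR13, present in mice and absent from humans, a sequence of bacterial ribosomal RNA. All of them recruit MyD88, which assembles IRAK kinases and starts NF-kappaB signalling and cytokine transcription. Alveolar macrophages meet inhaled bacteria first and are known for muted responses at rest.

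The stretches of DNA before a RefSeq start of Tlr13 and Myd88 are shown because these genes stood apart between Lyz2cre and WT. That of Tlr2 is shown because it had the highest level of the receptor genes. The letters are from RefSeq (GRCm38.p6) and run 5′ to 3′ on the strand of the gene, from 250 bases before that start. They go up to the next base that GENCODE M21 annotates as an exon of that gene. For Myd88 the outermost GENCODE end (119341411) lies further upstream, so its stretch is inside the annotated gene. Capitals mark matches to any of 4 motifs, searched on both strands of the whole RefSeq window from 250 bases before to 50 bases after the transcription start. The motifs were the core bound by the myeloid factor PU.1 (GAGGAA), AP-1 (TGANTCA), an NF-kappaB core (GGGNNTTCC) and the core of the antioxidant response element (TGACNNNGC).
Tlr13 upstream, chrX:106143025-106143203, plus strand: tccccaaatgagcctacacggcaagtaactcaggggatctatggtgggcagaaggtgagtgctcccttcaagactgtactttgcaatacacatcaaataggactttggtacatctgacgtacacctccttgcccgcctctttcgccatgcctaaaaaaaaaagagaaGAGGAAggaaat
Myd88 upstream, chr9:119340042-119340268, minus strand: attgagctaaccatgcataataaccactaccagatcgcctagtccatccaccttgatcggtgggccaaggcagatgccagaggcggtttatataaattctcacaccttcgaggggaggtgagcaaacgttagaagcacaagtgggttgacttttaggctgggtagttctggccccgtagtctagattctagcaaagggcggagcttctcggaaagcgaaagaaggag
Tlr2 upstream, chr3:83841768-83841858, minus strand: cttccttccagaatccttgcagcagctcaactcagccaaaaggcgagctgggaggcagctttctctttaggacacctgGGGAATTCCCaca
The Tlr13 window held the PU.1 core with its first base at -83 from the RefSeq start. The Tlr2 window held the NF-kappaB core at -172, and its reverse complement matched the other strand at -171, so these are a single overlapping site. None of the 4 motifs was found in the Myd88 window, whose RefSeq start lies 1393 bases inside the outermost GENCODE end of the gene. Over all 32851 RefSeq promoter windows of the same length, 28.3% held the PU.1 core, 7.81% the AP-1 motif, 5.82% the NF-kappaB core and 12.4% the antioxidant response element core. A match describes the letters and shows neither binding nor regulation. RefSeq windows for 6 of the 10 genes were used, the others being those of Tlr1, Tlr6 and Tlr9, while Tlr4, Tlr7, Ly96 and Cd14 were named only.

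The libraries were checked before the receptor genes were compared. Siah1a was listed at 0, 0 and 0.05 TPM in the Lyz2cre libraries, at 0 in CD11ccre and at 16.59, 6.72 and 13.35 TPM in WT, and Siah2 at 1.45 to 1.95 TPM in Lyz2cre, 1.21 TPM in CD11ccre and 12.69 to 17.33 TPM in WT. Lyz2 stood at 46.62 to 61.89 TPM in Lyz2cre, 50676 TPM in CD11ccre and only 72.56 to 86.25 TPM in WT, so for this gene, the Cre locus of one line, WT resembled Lyz2cre. All 14 alveolar macrophage markers reached 1 TPM, with summed levels of 64106 to 79631 TPM in Lyz2cre, 71910 TPM in CD11ccre and 31079 to 34225 TPM in WT, the sum being mostly Chil3. By limma on log2(TPM + 1), at a Benjamini-Hochberg adjusted p under 0.05, these markers went both ways. In Lyz2cre 6 of the 14 were higher (Marco, Car4, Fabp4, Fabp5, Chil3 and Slc39a2) and 3 lower (Siglecf, Ear2 and Cidec). In CD11ccre 5 were higher (Car4, Fabp4, Fabp5, Chil3 and Slc39a2) and 2 lower (Siglecf and Ear2). The shares called over all 11397 tested genes were 6.76% and 2.89%. The marker calls held least often for Marco in Lyz2cre (12 of 18 alternatives) and for Fabp4 in CD11ccre (8 of 17). Siglecf, a marker of the sort, stood at 65.48 to 106.62 TPM in Lyz2cre (limma adjusted p = 0.00746), 53.87 TPM in CD11ccre (0.0136) and 210.72 to 256.5 TPM in WT. Dendritic cell markers summed to 2.26 to 6.06 TPM in Lyz2cre, 2.56 TPM in CD11ccre and 6.38 to 24.9 TPM in WT, and B cell markers to 0.42 to 2.76 TPM in Lyz2cre, 1.7 TPM in CD11ccre and 6.96 to 17.64 TPM in WT. Most of the WT sums was Batf3 and Igkc, which were called lower in Lyz2cre (limma adjusted p = 0.0374 and 0.0315). These calls held in 6 of 18 alternatives for Batf3 and 9 of 17 for Igkc. The Igkc call ended whichever WT or Lyz2cre library was left out. Clec9a of the dendritic list stood at 1.51 to 2.14 TPM in Lyz2cre, 0.6 TPM in CD11ccre and 0.51 to 0.65 TPM in WT. The part of these differences in the results was not tested. Ftl1, Fth1 and Chil3 took 14.4% to 16.3% of the TPM in Lyz2cre, 14.0% in CD11ccre and 4.90% to 5.29% in WT, and mitochondrially encoded genes took 2.67% to 4.61% in Lyz2cre, 4.23% in CD11ccre and 7.54% to 9.25% in WT. Values are TPM (read shares scaled by gene length, with the same total in each library). They keep no sequencing depth, which is unknown here, and counting intervals are therefore not given. In such bulk samples fewer cells of a type and less RNA per cell cannot be told apart.

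Cd14 rose in the Lyz2cre macrophages and was the only one of the 10 genes to pass the test. Tlr13 was also higher and Myd88 lower in all 3 Lyz2cre libraries than in any WT library, but both narrowly missed the threshold of an adjusted p of 0.05 (0.0508 and 0.0567). Tlr2, Tlr4, Tlr6, Tlr7 and Ly96 overlapped between the groups, and Tlr1 and Tlr9 were listed at or near 0 throughout. In the CD11ccre library no gene of the set passed the test against WT, and Cd14 lay within the WT range. Changes were tested with limma on log2(TPM + 1) over the 11397 genes with a mean of at least 1 TPM, with p-values adjusted by the Benjamini-Hochberg method. On this scale the change of low genes is understated. Of the set, 8 genes passed that filter on their mean over all libraries and Tlr1 and Tlr9 did not.

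**Figure D1:**
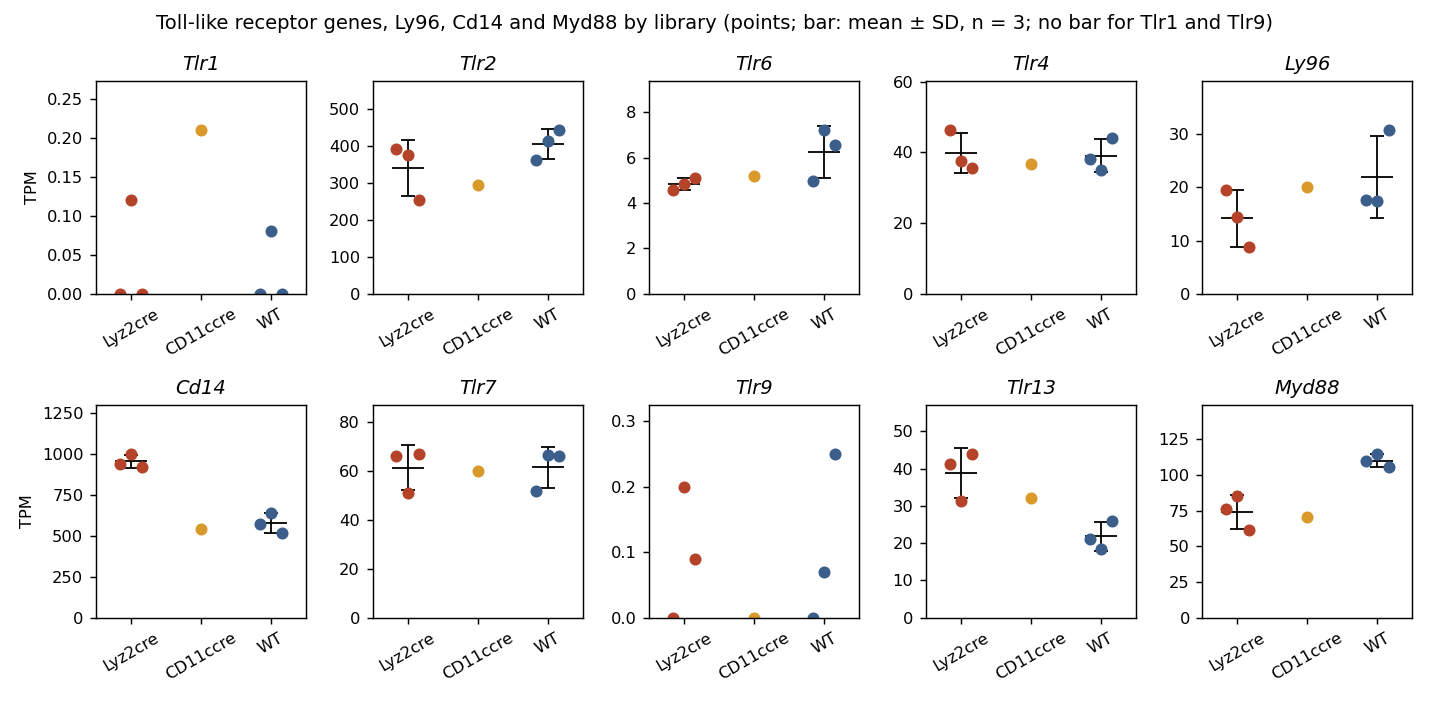
TPM (y axis, linear, from 0, scaled separately for each gene) of the 10 genes in the 3 Lyz2cre libraries, the CD11ccre library and the 3 WT libraries (x axis). Each point is a library, and the bars are the mean ± SD of 3 libraries, with none drawn for Tlr1 and Tlr9, whose highest values were 0.21 and 0.25 TPM. Cd14 was 919.41 TPM or more in Lyz2cre and 637.78 TPM or less in WT.

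The genes differed in level by orders of magnitude, and their ranking is given on the TPM scale, which allows for gene length. In Lyz2cre the order was Cd14, Tlr2, Myd88, Tlr7, Tlr4, Tlr13, Ly96 and Tlr6, with Tlr9 and Tlr1 near 0, and the ranges of neighbours overlapped between Myd88 and Tlr7 and between Tlr4 and Tlr13. The CD11ccre library had the same order down to Tlr6. In WT, Ly96 stood level with Tlr13 and above it by its mean, their ranges overlapping, while Cd14, Tlr2, Myd88, Tlr7 and Tlr4 came in the same order with no overlap between neighbours. Cd14 lay above 98.7% of the tested genes in Lyz2cre, 97.7% in CD11ccre and 97.6% in WT. Libraries of every genotype held abundant transcripts of the endotoxin co-receptor and of Tlr2, and few of Tlr6.

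Among the surface receptors, Tlr2 had the highest level. It stood at 391.59, 374.53 and 253.8 TPM in the Lyz2cre libraries, at 293.56 TPM in CD11ccre and at 361.17, 412.71 and 443.03 TPM in WT. The third Lyz2cre library was the lowest of all, the other 2 Lyz2cre libraries lay inside the WT range, and CD11ccre lay below it. Neither Cre line passed the test against WT, with a log2 fold change of -0.27 ± 0.18 (SE, 95% interval -0.70 to 0.15, adjusted p = 0.397) in Lyz2cre and -0.46 (-1.06 to 0.14, adjusted p = 0.331) in CD11ccre.

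TLR2 works only as a pair, and its partners were scarce. Tlr6, the partner for diacylated lipopeptides, was listed at 4.58, 4.85 and 5.13 TPM in Lyz2cre, 5.21 TPM in CD11ccre and 4.97, 7.22 and 6.57 TPM in WT. The groups overlapped only through the first WT library, and the change of -0.30 ± 0.20 (SE, 95% interval -0.78 to 0.18) in Lyz2cre did not pass (adjusted p = 0.420), nor did that of -0.21 in CD11ccre (adjusted p = 0.707). Tlr1, the partner for triacylated lipopeptides, was listed at 0, 0.12 and 0 TPM in Lyz2cre, 0.21 TPM in CD11ccre and 0, 0.08 and 0 TPM in WT, so it was near 0 in all 7 libraries and no fold is given. Tlr1 and Tlr6 are close relatives lying 18.5 kb apart on chromosome 5 (Tlr1 64924679 to 64933563 and Tlr6 64952031 to 64960097, both minus strand, mm10). Of the 75-base windows along their GENCODE transcripts, 10.6% in Tlr1 and 9.25% in Tlr6 also occur in another gene, for Tlr6 only in Tlr1. A division of reads between these 2 genes is uncertain to that extent, while none of the windows of the other 8 genes was shared. The ratio of Tlr2 to Tlr6 within a library was 85.5, 77.2 and 49.5 in Lyz2cre, 56.3 in CD11ccre and 72.7, 57.2 and 67.4 in WT, with full overlap (exact two-sided permutation p = 0.7).

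Tlr4, the lipopolysaccharide receptor, averaged 39.9 TPM ± 5.64 in Lyz2cre and 39.1 TPM ± 4.60 in WT (SD, n = 3 each). Its levels were 46.29, 37.66 and 35.68 TPM in Lyz2cre, 36.83 TPM in CD11ccre and 38.22, 34.95 and 44.04 TPM in WT. High and low libraries occurred in both groups, and CD11ccre lay within the WT range. The change in Lyz2cre was 0.03 ± 0.15 (SE, 95% interval -0.33 to 0.39, adjusted p = 0.941) and in CD11ccre -0.08 (-0.59 to 0.43, adjusted p = 0.865). A missed threshold does not show that the levels were alike. As TPM is scaled, the Lyz2cre interval reached 0.39 upwards and 0.33 downwards on the log2 scale. It does not cover other scalings, and median-of-ratios scaling gave 0.21 in Lyz2cre (limma adjusted p = 0.483).

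MD-2, encoded by Ly96, sits on TLR4 and holds the lipid of endotoxin. Ly96 was listed at 19.46, 14.35 and 8.74 TPM in Lyz2cre, 19.99 TPM in CD11ccre and 17.61, 17.44 and 30.76 TPM in WT. It was the most variable of the 8 tested genes, with the third Lyz2cre library lowest and the third WT library highest, and the groups overlapped. The change of -0.61 ± 0.32 (SE, 95% interval -1.37 to 0.15) in Lyz2cre did not pass (adjusted p = 0.294), and that in CD11ccre was -0.08 (adjusted p = 0.939).

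CD14 is the lipid-anchored protein that collects lipopolysaccharide and passes it to TLR4 and MD-2, and it also serves TLR2 ligands. Cd14 stood at 940.71, 999.95 and 919.41 TPM in the Lyz2cre libraries, at 542.5 TPM in CD11ccre and at 573.53, 637.78 and 516.82 TPM in WT. All 3 Lyz2cre libraries lay above all 3 WT libraries, and CD11ccre lay inside the WT range. The mean was 953 TPM ± 41.7 in Lyz2cre and 576 TPM ± 60.5 in WT (SD, n = 3 each), a ratio of 1.66. The log2 fold change was 0.73 ± 0.11 (SE, 95% interval 0.48 to 0.98) with a limma adjusted p of 0.0116. This call held in all 18 alternative settings, rescaling without Ftl1, Fth1, Chil3 and Lyz2 or without mitochondrially encoded genes included, with adjusted p from 0.00565 to 0.0478. The gene lies on chromosome 18 (36725067 to 36726798, minus strand, mm10) and overlaps no other annotated gene.

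Cd14 also separated the Cre lines by value, though not by the test. CD11ccre against WT gave a log2 fold change of -0.08 (95% interval -0.44 to 0.27, adjusted p = 0.789). CD11ccre against Lyz2cre gave -0.81 ± 0.15 (SE, 95% interval -1.17 to -0.46), for which the adjusted p was 0.316, from 0.125 to 0.729 over 17 alternatives. Cd14 was the only one of the 8 tested genes with an unadjusted p under 0.05 in that comparison, beside 695 of 11397 genes. At the adjusted threshold 0 of 8 passed, beside 13 of 11397 genes (0.114%). The CD11ccre group is a single library, which the fit assumes to vary like the others, and both Cre lines were set against the same WT libraries. Lyz2 RNA stood at 50676 TPM in that library, 46.62 to 61.89 TPM in Lyz2cre and 72.56 to 86.25 TPM in WT. CD11ccre thus differed from WT in Lyz2 RNA as well as in Siah1a and Siah2. The labels do not explain the low Lyz2 level in WT. The part of Lyz2 in the Cd14 difference was not tested.

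Monocytes and neutrophils also carry Cd14, so their markers are given beside it. Of 10 monocyte and interstitial macrophage markers, 6 had group means below 1 TPM in every group, Cd209d was at 0 in all libraries, and the summed level was 151 to 192 TPM in Lyz2cre, 165 TPM in CD11ccre and 137 to 195 TPM in WT, most of it Fcgr4. Only Ccr2, the chemokine receptor of monocytes, was called of the 3 tested genes of that list, in Lyz2cre, beside 6.76% over all genes. Ccr2 stood at 0.58 to 0.91 TPM in Lyz2cre, 0.6 TPM in CD11ccre and 2.98 to 6.85 TPM in WT. It fell in Lyz2cre (limma adjusted p = 0.0360, and 0.0515 to 0.101 without any 1 WT or Lyz2cre library) and missed the threshold in CD11ccre (0.0934). Of 10 neutrophil markers, Ly6g, Ngp and Camp were at 0 in all 7 libraries, and the sum was 127 to 169 TPM in Lyz2cre, 151 TPM in CD11ccre and 55.0 to 107 TPM in WT. S100a8 made up most of the neutrophil sum in the Cre lines, at 80.88 to 126.83 TPM in Lyz2cre, 92.1 TPM in CD11ccre and 15.6 to 32.86 TPM in WT. Mmp8 and Cxcr2 of that list were also higher in Lyz2cre without overlap with WT. Over all genes 3507 of 11397 (30.8%) did not overlap in either direction, so nothing particular is read from it. Mmp8 stood at 18.67 to 26.76 TPM in Lyz2cre (limma adjusted p = 0.0612), 45.87 TPM in CD11ccre (0.0269, held in 12 of 17 alternatives) and 10.01 to 14.89 TPM in WT. Cxcr2 stood at 3.82 to 7.41 TPM in Lyz2cre, 6.65 TPM in CD11ccre and 1.3 to 3.77 TPM in WT, without passing (0.206 and 0.247). Csf3r and S100a9 of the same list went the other way. Csf3r, the receptor for granulocyte colony-stimulating factor, stood at 5.36 to 11.08 TPM in Lyz2cre (limma adjusted p = 0.0392), 4.43 TPM in CD11ccre (0.0436) and 17.23 to 26.02 TPM in WT, calls that ended without any 1 WT library or without Lyz2cre replicate 2 (0.0747 to 0.112 in Lyz2cre and 0.0747 to 0.0934 in CD11ccre), in Lyz2cre also without Lyz2cre replicate 3 (0.0989) and in CD11ccre also without Lyz2cre replicate 1 (0.0601). S100a9 stood at 1.16 to 6.9 TPM in Lyz2cre, 1.62 TPM in CD11ccre and 10.67 to 37.91 TPM in WT, without passing (adjusted p = 0.117 in Lyz2cre and 0.133 in CD11ccre). Of the 6 tested genes of the list, 1 was called higher (S100a8 in Lyz2cre and Mmp8 in CD11ccre) and 1 lower (Csf3r) in each line. Over all genes 6.76% were called in Lyz2cre and 2.89% in CD11ccre. The neutrophil sum of CD11ccre, a single library, lay within the Lyz2cre range. The part of such cells in the Cd14 level was not tested.

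Among the endosomal receptors, Tlr7 averaged 61.3 TPM ± 9.11 in Lyz2cre and 61.5 TPM ± 8.43 in WT (SD, n = 3 each). It stood at 66.18, 50.81 and 66.97 TPM in Lyz2cre, 60.15 TPM in CD11ccre and 51.74, 66.64 and 66.02 TPM in WT. One library in each group was low and the rest were nearly level. The log2 fold change was -0.01 ± 0.16 (SE, 95% interval -0.39 to 0.38, adjusted p = 0.990) in Lyz2cre and -0.02 (-0.56 to 0.52, adjusted p = 0.970) in CD11ccre. Tlr9 was listed at 0, 0.2 and 0.09 TPM in Lyz2cre, 0 in CD11ccre and 0, 0.07 and 0.25 TPM in WT, near 0 throughout and with no fold given.

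Tlr13, the mouse sensor of bacterial ribosomal RNA, was higher in each Lyz2cre library than in any WT library. Its levels were 41.22, 31.22 and 43.96 TPM in Lyz2cre, 32.05 TPM in CD11ccre and 21.17, 18.27 and 26.03 TPM in WT. The CD11ccre library also lay above the WT range. Means were 38.8 TPM ± 6.71 in Lyz2cre and 21.8 TPM ± 3.92 in WT (SD, n = 3 each), a ratio of 1.78. The log2 fold change of 0.80 ± 0.19 (SE, 95% interval 0.36 to 1.25) had a limma adjusted p of 0.0508, just short of the threshold, and passed in 7 of 18 alternatives (range 0.0344 to 0.161). In CD11ccre it was 0.55 (-0.08 to 1.18, adjusted p = 0.275). The gene lies on chromosome X (106143204 to 106160493, plus strand, mm10), the chromosome that also carries Tlr7, and its upstream letters are those shown first above.

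Myd88, the adaptor shared by these receptors and by interleukin 1 family receptors, was lower in both Cre lines than in any WT library. It stood at 75.82, 85.29 and 61.21 TPM in Lyz2cre, 70.17 TPM in CD11ccre and 109.83, 114.8 and 105.49 TPM in WT. WT libraries were closely grouped and every Cre library lay below them. Means were 74.1 TPM ± 12.1 in Lyz2cre and 110 TPM ± 4.66 in WT (SD, n = 3 each), a ratio of 0.673. The log2 fold change was -0.58 ± 0.14 (SE, 95% interval -0.91 to -0.24, limma adjusted p = 0.0567) in Lyz2cre, which passed in 3 of 18 alternatives (range 0.0325 to 0.162), and -0.64 (-1.11 to -0.17, adjusted p = 0.129) in CD11ccre, which passed in none of 17. Scaling by median of ratios brought the Lyz2cre value to -0.39 (adjusted p = 0.151).

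Myd88 lies on chromosome 9 (119335934 to 119341411, minus strand, mm10) and is the only gene of the set that overlaps others. Slc22a14 shares its strand and had 0 TPM in all 7 libraries. Acaa1a, a peroxisomal thiolase gene on the opposite strand, stood at 124.12 to 143.73 TPM in Lyz2cre, 120.46 TPM in CD11ccre and 121.22 to 202.14 TPM in WT (adjusted p = 0.364 for Lyz2cre and 0.377 for CD11ccre). The library kit marks strand, but the strand setting of the quantification is not given in the sources used here, so reads of Myd88 and Acaa1a in the shared stretch may not be separated.

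**Figure D2:**
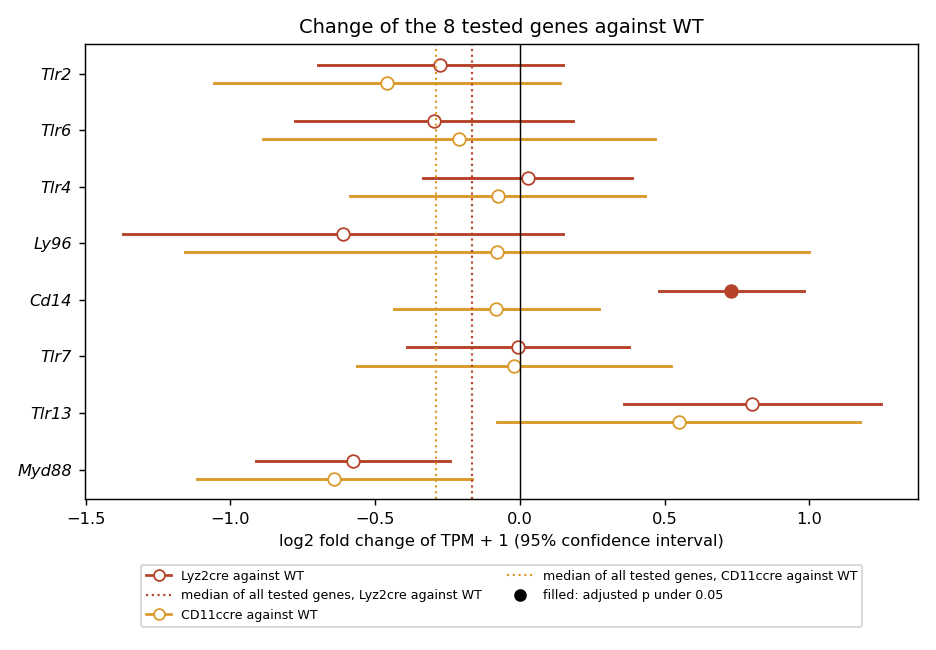
Log2 fold change of TPM + 1 against WT (x axis) of the 8 tested genes (rows) in Lyz2cre (upper line of each pair) and CD11ccre (lower line), with 95% confidence intervals. Filled points have an adjusted p under 0.05, and dotted lines mark the median of all tested genes, -0.16 in Lyz2cre and -0.29 in CD11ccre. Cd14 in Lyz2cre is the only filled point, at 0.73, and the Myd88 points of both lines lie side by side at -0.58 and -0.64.

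The counts in the set were read beside those over all genes. In Lyz2cre against WT, 1 of 8 tested genes passed, beside 771 of 11397 genes (6.76%), of which 247 were higher (2.17%) and 524 lower (4.6%). The groups did not overlap for Tlr13, Cd14 and Myd88, 3 of the 8, beside 3507 of the 11397 genes (30.8%). In CD11ccre against WT, 0 of 8 passed in limma, beside 329 of all genes (2.89%), 102 higher (0.895%) and 227 lower (1.99%). Myd88 alone of the 8 had an unadjusted p under 0.05 there, beside 2540 of the 11397 genes. The median log2 fold change of the 8 genes was -0.14 in Lyz2cre, -0.08 in CD11ccre and -0.08 for CD11ccre against Lyz2cre, beside -0.16, -0.29 and -0.12 over all tested genes.

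The centre of all genes depends on the scaling of TPM. With median-of-ratios scaling the medians over all genes were 0.00027, -0.0019 and 0.0025 for the same comparisons, the medians of the 8 genes became 0.04, 0.23 and 0.05, and the calls in Lyz2cre split into 340 higher and 205 lower in place of 247 and 524. The calls in CD11ccre against WT split into 153 higher and 85 lower in place of 102 and 227. Quantile normalization gave 316 higher and 213 lower in Lyz2cre and 122 and 79 in CD11ccre, and rescaling without Ftl1, Fth1, Chil3 and Lyz2 gave 315 and 211 in Lyz2cre and 116 and 89 in CD11ccre. Rescaling without mitochondrially encoded genes moved the split the other way, to 241 higher and 905 lower in Lyz2cre and 112 and 438 in CD11ccre. Relative to the median-of-ratios centre Cd14 was higher by 0.91 and Tlr13 by 0.98 in Lyz2cre, and Tlr13 then passed (adjusted p = 0.0344). The signs of Tlr7 in Lyz2cre and of Tlr4, Tlr6, Tlr7, Cd14 and Ly96 in CD11ccre turned positive under median-of-ratios scaling, all without passing the test.

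Ratios of genes within a library do not depend on that scaling, and 9 were compared between Lyz2cre and WT. With 3 libraries against 3 the exact two-sided permutation test cannot go below p = 0.1, so none can pass 0.05. Single genes did not overlap in 30.8% of cases, and no such share was taken over other gene pairs. Ratios with Cd14, Tlr13 or Myd88 also carry the differences of those genes, so nothing further is read from non-overlap. Cd14 to Tlr4, co-receptor to receptor, was 20.3, 26.6 and 25.8 in Lyz2cre, 14.7 in CD11ccre and 15.0, 18.2 and 11.7 in WT (p = 0.1, exact permutation), every Lyz2cre library above every WT library. Cd14 to Tlr2 was 2.40, 2.67 and 3.62 in Lyz2cre, 1.85 in CD11ccre and 1.59, 1.55 and 1.17 in WT (p = 0.1, exact permutation), again without overlap and with CD11ccre between the groups.

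Co-receptor, RNA sensor and adaptor were set against Tlr4 or Tlr7 in the same way. Ly96 to Tlr4 was 0.420, 0.381 and 0.245 in Lyz2cre, 0.543 in CD11ccre and 0.461, 0.499 and 0.698 in WT, lower in each Lyz2cre library than in any WT library although the Ly96 levels themselves overlapped. Tlr13 to Tlr7 was 0.623, 0.614 and 0.656 in Lyz2cre, 0.533 in CD11ccre and 0.409, 0.274 and 0.394 in WT, a ratio that varied little within Lyz2cre. Myd88 to Tlr4 was 1.64, 2.26 and 1.72 in Lyz2cre, 1.91 in CD11ccre and 2.87, 3.28 and 2.40 in WT. These 3 ratios gave p = 0.1 in the exact permutation test, and those of Tlr2 to Tlr4 (p = 0.2), Myd88 to Tlr7 (p = 0.2) and Tlr7 to Tlr4 (p = 0.7) overlapped between the groups.

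**Figure D3:**
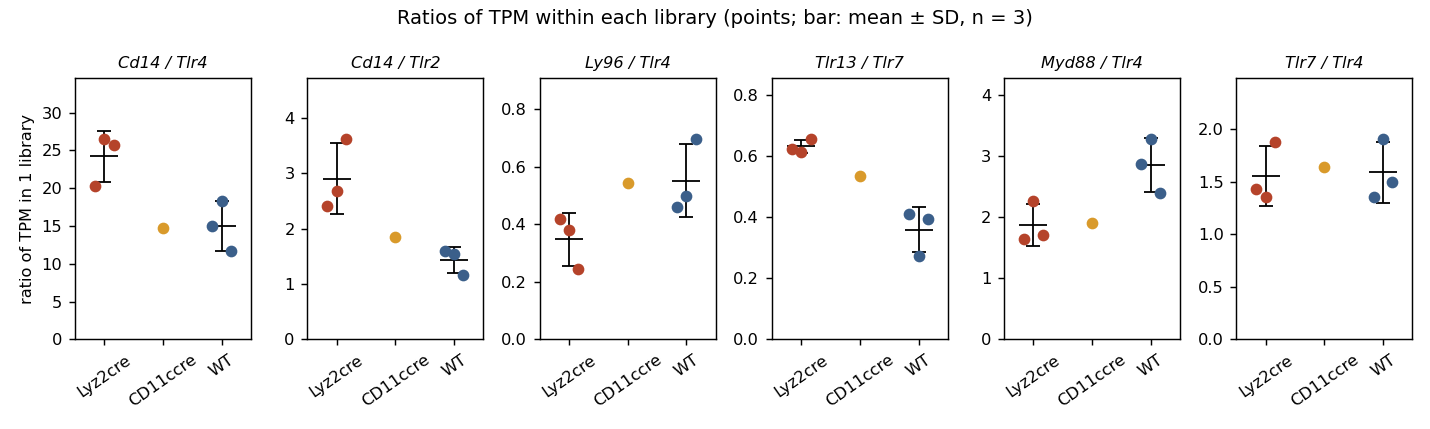
Ratio of the TPM of 2 genes in the same library (y axis, linear, from 0, scaled separately for each ratio) for 6 of the 9 pairs, in Lyz2cre, CD11ccre and WT (x axis). Points are libraries and bars the mean ± SD of 3. The pairs not drawn, Tlr2 / Tlr4, Tlr2 / Tlr6 and Myd88 / Tlr7, overlapped between Lyz2cre and WT. Cd14 / Tlr4, Cd14 / Tlr2 and Tlr13 / Tlr7 were higher and Ly96 / Tlr4 and Myd88 / Tlr4 lower in every Lyz2cre library than in any WT library, while Tlr7 / Tlr4 overlapped (1.35 to 1.88 in Lyz2cre and 1.35 to 1.91 in WT).

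The remaining genes of Toll-like receptor signalling were taken from 6 lists, of which 72 genes were tested. In Lyz2cre against WT, 7 rose, 5 fell and 60 did not pass, beside 6.76% called over all genes (2.17% higher and 4.6% lower). In CD11ccre against WT 2 rose, 4 fell and 66 did not pass, beside 2.89% over all genes (0.895% higher and 1.99% lower). Those that rose include Ccl2 in both lines and Acod1 in Lyz2cre, which passed the filter only through their levels in the Cre lines. The counts for single lists that follow stand beside the same shares, and nothing particular to a list is read from them. None of the 72 passed in CD11ccre against Lyz2cre in limma, where 9 had an unadjusted p under 0.05, beside 695 of 11397 genes. Of the other receptor genes, none of the 3 tested passed in either Cre line or had an unadjusted p under 0.05. Tlr3, for double-stranded RNA, stood at 3.43 to 4.26 TPM in Lyz2cre, 5.35 TPM in CD11ccre and 2.41 to 3.52 TPM in WT (adjusted p = 0.380 in Lyz2cre). Tlr5, for flagellin, stood at 5.74 to 6.72 TPM in Lyz2cre, 5.41 TPM in CD11ccre and 6.24 to 13.47 TPM in WT (adjusted p = 0.225 in Lyz2cre). Tlr8, which lies 40.6 kb from Tlr7, stood at 23.73 to 31.74 TPM in Lyz2cre, 26.74 TPM in CD11ccre and 17.6 to 43.47 TPM in WT (adjusted p = 0.953 in Lyz2cre), so it overlapped widely. Tlr11 was listed at 0 but for 0.18 TPM in the first WT library, and Tlr12 at 0 in all.

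Of 12 tested accessory and trafficking genes in Lyz2cre, Cd36 rose and Ly86 fell. Cd36, a scavenger receptor that also presents ligands to TLR2 with TLR6, averaged 506 TPM ± 47.6 in Lyz2cre, stood at 471 TPM in CD11ccre and averaged 319 TPM ± 15.9 in WT (SD, n = 3 each). Its log2 fold change was 0.66 in Lyz2cre (adjusted p = 0.0154), and in CD11ccre it missed the threshold (0.0893) but not with median-of-ratios scaling (0.0430). Leaving out WT replicate 2 (0.0584), Lyz2cre replicate 1 (0.0603) or Lyz2cre replicate 3 (0.0649) ended the Lyz2cre call. Ly86 encodes MD-1, a relative of MD-2 that pairs with the receptor homologue CD180. It averaged 23.9 TPM ± 2.14 in Lyz2cre, stood at 16.6 TPM in CD11ccre and averaged 48.7 TPM ± 3.40 in WT (SD, n = 3 each), a fall in both Cre lines (-0.997, adjusted p = 0.00888 in Lyz2cre, and -1.50, adjusted p = 0.0132 in CD11ccre).

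Endosomal receptors are cut by proteases before they signal, and nucleases prepare or remove their ligands, so 11 such genes were followed. In Lyz2cre the cathepsin genes Ctsk, Ctsb and Ctsl rose and Ctss and Pld4 fell, and 6 did not pass. Ctsk, a collagen-degrading cathepsin, had 3678 TPM ± 338 in Lyz2cre, 2987 TPM in CD11ccre and 780 TPM ± 197 in WT (SD, n = 3 each). It rose in both lines (2.27, adjusted p = 0.00228 in Lyz2cre, and 1.97, adjusted p = 0.0183 in CD11ccre, ending without WT replicate 2 at 0.0531). Ctsb averaged 857 TPM ± 46.4 in Lyz2cre and 535 TPM ± 23.6 in WT, and Ctsl 415 TPM ± 45.0 in Lyz2cre and 213 TPM ± 26.5 in WT (SD, n = 3 each). Their changes were 0.68 and 0.96 (adjusted p = 0.00910 and 0.00950). In CD11ccre Ctsb stood at 769.92 TPM (adjusted p = 0.0766, and 0.0305 with median-of-ratios scaling) and Ctsl at 349.99 TPM (adjusted p = 0.0848).

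Both genes that fell on this list did so in each Cre line. Ctss, the cathepsin of antigen presentation, averaged 2979 TPM ± 126 in Lyz2cre, stood at 2759 TPM in CD11ccre and averaged 4903 TPM ± 311 in WT (SD, n = 3 each). Both falls passed (-0.72, adjusted p = 0.00732 in Lyz2cre, and -0.83, adjusted p = 0.0259 in CD11ccre). With quantile normalization the Lyz2cre change was -0.25 (adjusted p = 0.208), and the CD11ccre call ended under median-of-ratios scaling (0.111) and when WT replicate 1 or 2 or Lyz2cre replicate 1 or 3 was left out (0.0516 to 0.0728). Pld4, an endosomal exonuclease that limits TLR9 ligands, averaged 78.5 TPM ± 17.9 in Lyz2cre, stood at 56.7 TPM in CD11ccre and averaged 156 TPM ± 5.02 in WT (SD, n = 3 each, adjusted p = 0.0198 in Lyz2cre and 0.0319 in CD11ccre). Leaving out any 1 WT library or Lyz2cre replicate 2 ended the Pld4 call in both lines (0.0550 to 0.0662 in Lyz2cre and 0.0613 to 0.0780 in CD11ccre).

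Downstream of MyD88, 21 adaptors, kinases and transcription factors were tested, and 2 fell in Lyz2cre. Ube2n, the ubiquitin-conjugating enzyme that works with TRAF6, averaged 29.5 TPM ± 2.31 in Lyz2cre, stood at 34.1 TPM in CD11ccre and averaged 49.5 TPM ± 5.91 in WT (SD, n = 3 each), with a change of -0.72 in Lyz2cre (adjusted p = 0.0280). Tab2, a subunit of the TAK1 kinase complex, averaged 24.2 TPM ± 0.678 in Lyz2cre, stood at 22.8 TPM in CD11ccre and averaged 38.7 TPM ± 5.49 in WT (SD, n = 3 each), with a change of -0.65 in Lyz2cre (adjusted p = 0.0409). Both calls ended whichever WT or Lyz2cre library was left out (0.0505 to 0.103 for Ube2n and 0.0678 to 0.121 for Tab2) and under median-of-ratios scaling (0.0766 and 0.124). In CD11ccre none of the 21 passed in limma, where 4 had an unadjusted p under 0.05, beside 2540 of 11397 genes.

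Of 11 negative regulators none passed in Lyz2cre in limma, where 3 had an unadjusted p under 0.05, beside 2809 of 11397 genes. In CD11ccre Tnfaip3, the gene of the ubiquitin-editing enzyme A20, fell by 1.44 on the log2 scale (adjusted p = 0.0423), standing at 23.7 TPM in CD11ccre, with 44.3 TPM ± 5.08 in Lyz2cre and 67.6 TPM ± 16.1 in WT (SD, n = 3 each). This call ended under median-of-ratios scaling (adjusted p = 0.112) and when WT replicate 2 (0.0739), WT replicate 3 (0.0737) or any 1 of the Lyz2cre libraries (0.0741 to 0.0753) was left out. In CD11ccre 4 of the 11 had an unadjusted p under 0.05 in limma, beside 2540 of 11397 genes. Of these Tnfaip3, Otulin and Zc3h12a were lower and Atf3 was higher. Otulin and Zc3h12a did not pass (adjusted p = 0.152 and 0.175). Atf3, a stress-induced transcription factor that restrains cytokine genes, was not called either and was picked after its values were seen. It stood at 113.19 to 139.89 TPM in Lyz2cre, 312.13 TPM in CD11ccre and 150.1 to 184.42 TPM in WT. Its log2 fold change in CD11ccre was 0.91 (adjusted p = 0.0517, just short of the threshold), and it passed in 6 of 17 alternatives, as with median-of-ratios scaling (0.0147). CD11ccre against Lyz2cre gave 1.26 for Atf3 (adjusted p = 0.131, and 0.0305 with median-of-ratios scaling).

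Of 14 tested products induced by Toll-like receptor signalling, 3 rose in Lyz2cre, none fell and 11 did not pass. Among those that rose, Ccl2 and Acod1 averaged below 1 TPM in WT. They passed the filter of 1 TPM on the mean over all libraries only through their levels in the Cre lines. A gene so low in WT could be tested only if it was higher there, so for both a rise was built in. Ccl2, a monocyte attractant, averaged 5.66 TPM ± 1.18 in Lyz2cre, stood at 16.5 TPM in CD11ccre and averaged 0.763 TPM ± 0.449 in WT (SD, n = 3 each), rising in both lines (1.93, adjusted p = 0.0110 in Lyz2cre, and 3.34, adjusted p = 0.0106 in CD11ccre). Il1b averaged 113 TPM ± 23.8 in Lyz2cre, stood at 60.1 TPM in CD11ccre and averaged 44.1 TPM ± 13.8 in WT (SD, n = 3 each). It rose by 1.36 on the log2 scale in Lyz2cre (adjusted p = 0.0228). Without WT replicate 1 or 3 or Lyz2cre replicate 1 or 2 its adjusted p was 0.0613 to 0.0790. Acod1, which makes itaconate, averaged 3.99 TPM ± 1.62 in Lyz2cre, stood at 5.96 TPM in CD11ccre and averaged 0.640 TPM ± 0.400 in WT (SD, n = 3 each), a low level with a change of 1.58 (adjusted p = 0.0437) in Lyz2cre that passed in no fit leaving out a WT or Lyz2cre library (0.0721 to 0.132). The median log2 change of the 14 products was 0.16 in Lyz2cre and -0.38 in CD11ccre, beside -0.16 and -0.29 over all tested genes. Ccl2 and Acod1 are part of these medians and of the counts above, so nothing is read from them.

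**Figure D4:**
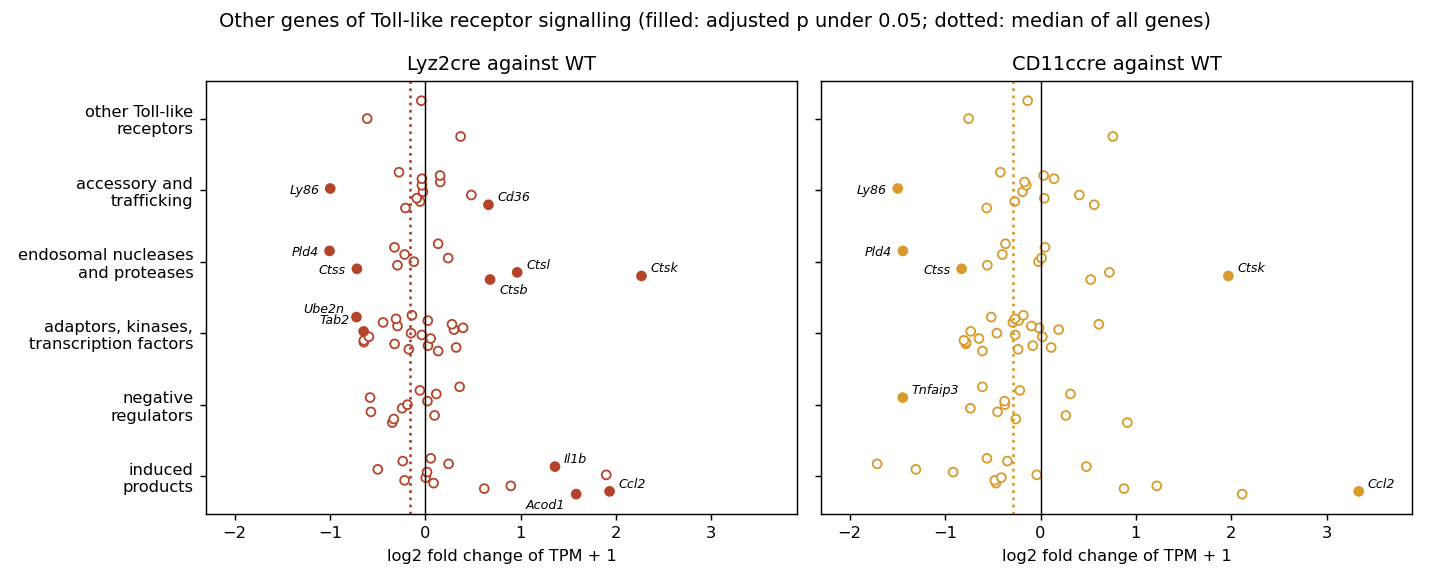
Log2 fold change of TPM + 1 against WT (x axis) of the 72 tested genes on 6 lists of Toll-like receptor signalling (rows), for Lyz2cre (left) and CD11ccre (right). Each point is a gene, filled and named where its adjusted p was under 0.05, and the dotted line is the median of all tested genes. Filled points number 12 in Lyz2cre, from -1.01 for Pld4 to 2.27 for Ctsk, and 6 in CD11ccre, with Ccl2 at 3.34 farthest to the right. Ccl2 and Acod1 passed the filter on low levels only through their levels in the Cre lines.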

How the data were processed

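Per the labels' protocols, poly(A) RNA became strand-specific NEBNext libraries with single-end reads from an Illumina NextSeq. Trimming with cutadapt 2.3, alignment with STAR 2.7.0d and RSEM 1.3.1, on the mm10 build, are named in the submitters' processing notes, though not their parameters, annotation or strand setting. The authors deposited TPM, which sum to 1000000 in each of 7 libraries.

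Libraries were grouped by title. Of the gene IDs, 47224 of 47643 matched GENCODE M21, used for coordinates. limma 3.58.1 (R 4.3.3), with a mean-variance trend, was run on log2(TPM + 1) for the 11397 genes averaging at least 1 TPM. All 7 libraries entered 1 fit, which had 4 residual degrees of freedom and 3.35 prior ones, and the two-sided p-values were adjusted over all tested genes, threshold 0.05. Exact permutation tests used SciPy 1.17.1. The limma step was checked on simulated data.

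The 10 genes, the lists and the markers were chosen with earlier results of these data known. All 10 are named, with up to 6 called genes per list and, after their values were seen, the uncalled Atf3, Otulin and Zc3h12a. The closing section gives 18 alternatives. No 2 libraries shared over 1.79% of their values. Acod1 is listed under its older symbol Irg1, and Tasl had no match.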

Additional observations from a re-analysis of the deposited data

How the results depend on the processing

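Cd14 in Lyz2cre against WT kept its direction and passed in all 18 alternatives. Over 416 alternative values of the 8 tested genes in the 3 comparisons, 366 kept their direction and side of the threshold, 10 passed newly (7 for Tlr13 and 3 for Myd88, both in Lyz2cre) and 40 changed sign, all without passing. TPM carries no depth, so precision rests on 3, 1 and 3 libraries, and Tlr1 and Tlr9 lie too low for any comparison. Fits with the block or with a library left out have fewer residual degrees of freedom, and in other settings the cause of a changed call was not tested.

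Of the 8 genes tested in Lyz2cre against WT, 1 passed, while 3 passed with a mean TPM of at least 5 and with robust fitting (Cd14, Tlr13 and Myd88). With median-of-ratios scaling, quantile normalization, rescaling without Ftl1, Fth1, Chil3 and Lyz2, the replicate block or CD11ccre left out, 2 passed (Cd14 and Tlr13), and with rescaling without mitochondrially encoded genes 2 passed (Cd14 and Myd88). Leaving out single libraries gave 1 throughout. The groups did not overlap for 3 genes, and for 3 to 5 with a library left out, Tlr2 and Tlr6 joining without WT replicate 1. Non-overlap comes more easily with fewer libraries, and the share of 30.8% over all genes is for 3 libraries against 3. Nothing is therefore read from the higher counts.

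Over all genes, 771 passed in Lyz2cre against WT, 342 with no filter, 436 with no trend, 390 with the block and 239 to 514 with a library left out (239 without Lyz2cre replicate 3). In CD11ccre against WT, 329 passed, 201 with quantile normalization, 205 when rescaled without the 4 abundant genes, 550 without mitochondrial genes, 122 with no trend, 21 with the block and 94 to 183 with a library left out. CD11ccre against Lyz2cre gave 13, 210 with no filter, 3 with the block and 2 to 11 with a library left out. Of the 72 listed genes, 12 passed in Lyz2cre, 6 with no filter, 7 with no trend and 7 to 8 with a library left out. In CD11ccre against WT 6 passed, 3 with no filter, 2 with no trend, 0 with the block and 2 to 5 with a library left out. Between the Cre lines 0 passed, and 1 with median-of-ratios scaling.

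Signs that changed were those of differences near 0, on the log2 scale, and none passed. In Lyz2cre against WT, Tlr7 became 0.18, 0.17 and 0.16 with median-of-ratios scaling, quantile normalization and rescaling without the abundant genes, and Tlr4 became -0.046 when rescaled without mitochondrial genes. In CD11ccre against WT the first 3 settings gave 0.24, 0.23 and 0.15 for Tlr4, 0.30, 0.25 and 0.21 for Tlr7, 0.24, 0.088 and 0.15 for Cd14, 0.23, 0.21 and 0.14 for Ly96 and, for the first 2, 0.062 and 0.081 for Tlr6. In CD11ccre against Lyz2cre they gave 0.12, 0.084 and 0.047 for Tlr7 and, for the first 2, 0.072 and 0.053 for Myd88 and 0.032 and 0.026 for Tlr4. The replicate block gave Tlr7 0.036 in CD11ccre against WT and 0.041 against Lyz2cre. With a library left out, Tlr4 ran from -0.0833 to 0.114 and Tlr7 from -0.122 to 0.123 in Lyz2cre against WT. In CD11ccre against WT Tlr4 ran from -0.152 to 0.0107, Tlr7 from -0.139 to 0.0406 and Ly96 from -0.212 to 0.18. In CD11ccre against Lyz2cre Tlr4 ran from -0.177 to 0.0066, Tlr7 from -0.144 to 0.0517 and Myd88 from -0.194 to 0.042.

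WT and Lyz2cre libraries share replicate numbers. Deviations of same-numbered libraries from their group means correlated at -0.01, 0.04 and 0.07, and Lyz2cre replicate 1 correlated best with WT replicate 3, so the numbers were not taken as pairs and the block counts above are only an alternative. Under the block, Ly86 and Ccl2 in CD11ccre against WT had an adjusted p of 0.0787 each.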

Other observations

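MyD88 also serves the interleukin 1 family receptors, whose genes were looked at after the data had been seen. Il1r1, Il18r1, Il18rap and Il1rl1 averaged below 1 TPM in every group and were not tested. Il1rap, the shared accessory chain, stood at 7.66, 7.35 and 9.25 TPM in Lyz2cre, 10.1 TPM in CD11ccre and 7.72, 7.69 and 10.1 TPM in WT (limma adjusted p = 0.879 in Lyz2cre), with full overlap. Il1rl2, the receptor chain for interleukin 36, stood at 13.32, 10 and 13.09 TPM in Lyz2cre, 10.2 TPM in CD11ccre and 13.78, 15.34 and 17.05 TPM in WT (limma adjusted p = 0.298 in Lyz2cre and 0.240 in CD11ccre). Every Lyz2cre and CD11ccre value of Il1rl2 lay below the WT range, without passing the test. Lyz2cre and WT also did not overlap for 3507 of the 11397 genes (30.8%), so nothing particular to Il1rl2 is read from it.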
